A study of Mus musculus with 2 samples.

Results

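The data are the array signals of 9 genes of the unfolded protein response and the integrated stress response in mouse kidney: Hspa5, Ddit3, Atf4, Xbp1, Trib3, Herpud1, Dnajb9, Asns and Sesn2. They were found by name among the 43379 gene spots of each array, which gave 13 spots, 1 per probe, for all 9 genes, out of 16703 genes measured in all. One condition was kidney from male CD-1 mice fed adenine with the phenolic acid HMPA, and the other was kidney from mice fed adenine alone. Per the labels, the diets were based on AIN-93G with 0.2% adenine by weight and, in the HMPA condition, 2% HMPA, and were given for 1 week from 7 weeks of age. The sample titles name 5 mice and an age of 12 weeks instead, and do not say whether RNA was pooled. Dietary adenine damages kidney tubules through crystal deposits; both conditions received it, and kidney from mice without adenine was not analysed here.

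Proteins that enter the secretory pathway fold in the endoplasmic reticulum (ER), and misfolded protein there is sensed by IRE1, ATF6 and PERK. IRE1 splices the Xbp1 mRNA into the form that encodes an active transcription factor, ATF6 is cut to release another, and both raise ER chaperones and the machinery that degrades misfolded protein. PERK belongs to a family of kinases that phosphorylate eIF2alpha, also in response to amino acid shortage, haem shortage or viral RNA; general translation then slows while ATF4 is translated and drives genes of amino acid supply and, through CHOP, of cell death. Much of this control acts on splicing, translation and phosphorylation, none of which the arrays measure.

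The promoters of Hspa5, Herpud1 and Asns are shown because they hold the DNA elements through which ATF6, XBP1 and ATF4 are known to act. Each is the RefSeq window of 300 bases, from 250 before the transcription start to 50 after it, on build GRCm38.p6, printed 5′ to 3′ on the gene's strand with the matched elements in capitals. The Hspa5 window lies at chr2:34771840-34772139 on the + strand, the Herpud1 window at chr8:94386179-94386478 on the + strand and the Asns window at chr6:7693160-7693459 on the - strand.
Hspa5: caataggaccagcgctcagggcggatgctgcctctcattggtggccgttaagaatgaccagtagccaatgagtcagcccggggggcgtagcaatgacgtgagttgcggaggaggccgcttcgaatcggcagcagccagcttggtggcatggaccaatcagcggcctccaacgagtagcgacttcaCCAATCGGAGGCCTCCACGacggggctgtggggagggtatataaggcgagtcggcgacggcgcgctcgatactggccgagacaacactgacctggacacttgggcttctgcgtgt
Herpud1: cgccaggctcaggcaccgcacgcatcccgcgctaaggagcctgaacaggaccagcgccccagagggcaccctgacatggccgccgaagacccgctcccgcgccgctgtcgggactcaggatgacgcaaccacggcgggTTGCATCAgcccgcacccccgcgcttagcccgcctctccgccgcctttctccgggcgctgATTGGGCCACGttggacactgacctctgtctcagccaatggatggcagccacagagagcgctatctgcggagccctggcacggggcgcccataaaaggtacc
Asns: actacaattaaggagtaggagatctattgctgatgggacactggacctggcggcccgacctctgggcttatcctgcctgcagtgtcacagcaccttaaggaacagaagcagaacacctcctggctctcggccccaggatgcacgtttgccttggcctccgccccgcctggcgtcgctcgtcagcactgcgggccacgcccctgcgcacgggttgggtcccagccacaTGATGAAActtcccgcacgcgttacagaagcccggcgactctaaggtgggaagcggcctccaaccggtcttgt

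Windows of all 9 genes were searched on both strands for 4 elements. The ER stress response element, CCAAT and CCACG with 9 bases between them, was found in Hspa5, at positions −65 to −47 from the start, and in no other of the 9 genes. It was present in 0.119% of all 32851 promoter windows and, counting each gene once, in 0.137% of 27025 genes. Element II, ATTGG and CCACG with 1 base between them, was found in Herpud1, at positions −52 to −42. It was in 0.0365% of all windows (0.0444% of genes). The C/EBP-ATF response element, searched as TGATGNAA, was found in Asns, Herpud1 and Trib3 and in 3.97% of all windows (4.51% of genes). In Herpud1 and Trib3 it lay on the opposite strand, as printed in capitals for Herpud1. The UPR element core TGACGTGG was found in none of the 9 genes and in 0.676% of all windows (0.714% of genes). None of the matches overlapped. A match describes letters in these windows and not binding.

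The probes of the 3 transcription factors are shown because their positions decide which transcripts the signal covers. They are 60 bases long and read from the array files, which place them on build mm9: Atf4 at chr15:80087079-80087138, Xbp1 at chr11:5424970-5425029 and Ddit3 at chr10:126732518-126732821, all on the + strand. Gene annotation of mm9 was not used here, and the probes are not assigned to exons or untranslated regions.
Atf4: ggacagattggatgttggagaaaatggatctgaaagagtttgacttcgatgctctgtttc
Xbp1: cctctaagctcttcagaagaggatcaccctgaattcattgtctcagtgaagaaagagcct
Ddit3: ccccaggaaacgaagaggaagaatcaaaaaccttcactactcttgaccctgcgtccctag
The Xbp1 probe maps to 60 bases without a gap, and its signal does not separate spliced from unspliced Xbp1 mRNA. The Ddit3 probe spans 304 bases of genome, so its 60 bases cross at least 1 gap.

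Each array held both conditions, with HMPA in Cy5 (red) on array 1 and in Cy3 (green) on array 2. The sample titles end in exp1 and exp2, and the labels do not say whether the arrays share RNA. Separate animals or extracts are not named, so the pair of arrays counts as 1 sample per condition measured in both dye orientations. Replicate animals could therefore not be told apart, and no test was made. Values after ± say how far either array lay from the mean of both. A gene counted as higher or lower under a size rule if its mean ratio reached 2-fold and both arrays, taken singly, reached 1.5-fold that way. By this rule 6.64% of the 16703 genes were higher with HMPA and 7.71% were lower (1109 and 1288 genes; 749 and 1972 under median centring in place of loess). The same rule called 0 genes when the arrays, after loess, were contrasted by dye instead of condition. A gene with the same sign of ratio on both arrays cannot be called in that contrast. The 0 therefore does not measure the size of dye effects. Median raw signals were 34.0 and 56.7 with HMPA (arrays 1 and 2), against 64.6 and 51.4 with adenine alone, over backgrounds of 22 to 25 units. With so few arrays, precision is limited throughout.

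None of the 9 genes met the rule in either direction, and the measured mean ratio of each was short of 2-fold. Some single arrays passed 2-fold with other processing. With median centring, Trib3 was −1.20 and Atf4 −1.07 on array 1, and Herpud1 was 1.07 on array 2. Missing the rule therefore does not show that the true differences were below 2-fold. Their log2 ratios of HMPA over adenine alone ran from −0.65 for Trib3 to 0.82 for Herpud1, with 5 below 0 and 4 above. Herpud1 and Dnajb9 were the genes most above 0 with the same sign on both arrays, and Trib3, Asns and Atf4 were the most below. In whole kidney RNA, fewer cells of a type and less RNA per cell cannot be told apart. The median ratio of the 9 was −0.21, against −0.04 for all genes. With 9 genes, 0 called is a small count to read against the background percentages above. All 9 were well above background in all 4 channels by their brightest probe, which stands for the gene below. Whether the conditions overlap is stated for single genes from 2 readings per condition, which count here as 1 sample. The share of all genes without overlap is not given here, so it is no measure of a difference.

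**Figure D1:**
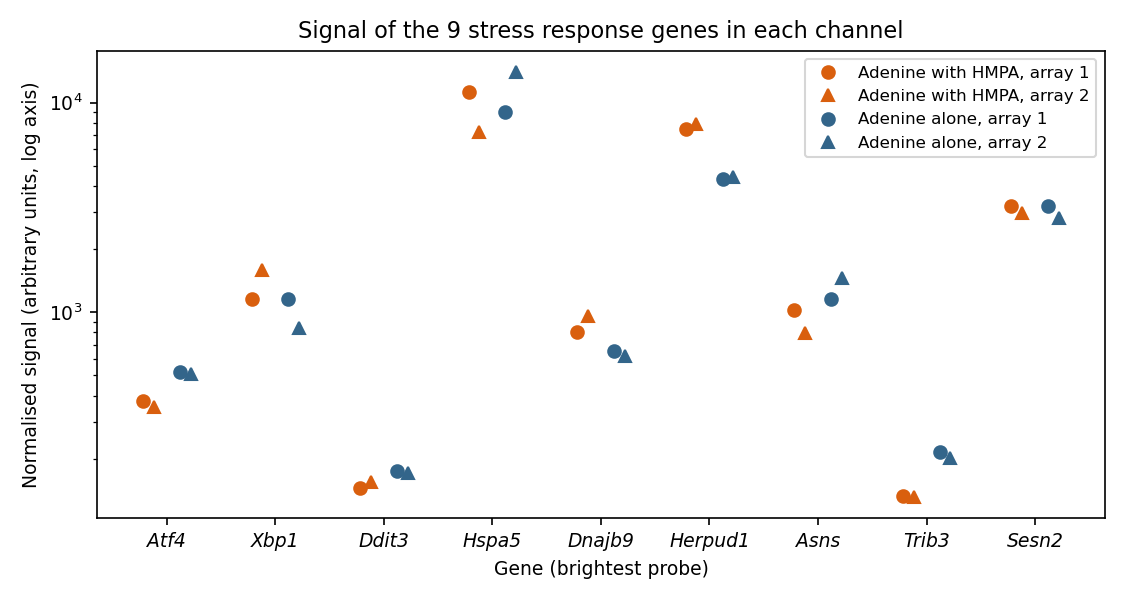
Normalised signal (log axis, arbitrary units) of the 9 genes by their brightest probe, with HMPA in orange left of adenine alone in blue; circles are array 1 and triangles array 2. Herpud1 and Dnajb9 lie higher with HMPA on both arrays, Atf4 and Trib3 lie lower, and the conditions overlap for Hspa5, Xbp1 and Sesn2; heights are not comparable between genes, since probes differ in brightness.

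Among the transcription factors, Atf4, which is induced mainly by translation, had normalised signals of 378 and 355 with HMPA on arrays 1 and 2, against 519 and 506 with adenine alone. The conditions did not overlap, and under loess the arrays gave nearly the same ratio. The log2 ratio was −0.49 ± 0.03, 1.40-fold lower, short of the rule. The arrays lay further apart with median centring, at −1.07 and −0.57, and with the ratios that the scanner software computed, at −0.59 and −0.34.

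Ddit3 encodes CHOP, the factor that links long stress to cell death. Its signals were 145 and 154 with HMPA and 176 and 170 with adenine alone, at raw values of 75.3 to 185. Both arrays put HMPA slightly lower. The log2 ratio was −0.21 ± 0.07, or 1.16-fold. With median centring the arrays gave −0.77 and −0.26, a mean of −0.51.

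Xbp1 had signals of 1150 and 1583 with HMPA, against 1160 and 840 with adenine alone. The arrays disagreed: on array 1 the conditions were level, with a log2 ratio of −0.01, and on array 2 HMPA was higher, with 0.91. The mean was 0.45 ± 0.46. A distance between arrays as large as this was rare, since 98.1% of genes had a smaller one. With the ratios that the scanner software computed, the arrays gave 0.25 and 0.73. With median centring they lay further apart, at −0.58 and 0.96, a distance larger than that of 99.7% of genes.

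The chaperone Hspa5 (BiP), which binds unfolded protein in the ER and holds the sensors inactive, gave opposite signs on the arrays under loess. Its signals were 11221 and 7269 with HMPA, against 9064 and 13993 with adenine alone. On array 1 HMPA was higher, with a log2 ratio of 0.31, and on array 2 it was lower, with −0.94. The loess mean of −0.32 ± 0.63 has no settled direction, and 99.8% of genes had a smaller distance between arrays. With the scanner software's own ratios the arrays gave −0.10 and −0.34, and with median centring in place of loess −0.04 and −0.66. Under these, 56.0% and 68.1% of genes had a smaller distance, so the large distance between arrays depended on the processing. The Hspa5 probe lies at chr2:34631630-34631689 on build mm9 and is the only one for the gene.

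Dnajb9 (ERdj4), a co-chaperone of BiP and a target of spliced XBP1, was measured by 3 probes. The brightest had signals of 806 and 961 with HMPA, against 655 and 619 with adenine alone. Another had 382 and 419 with HMPA and 273 and 304 with adenine alone. The dimmest had 255 and 273 with HMPA and 181 and 181 with adenine alone. All 3 probes were higher with HMPA on both arrays, without overlap of the conditions. Their log2 ratios were 0.47 ± 0.17, 0.47 ± 0.01 and 0.54 ± 0.05, or 1.38-fold to 1.46-fold, and none met the rule. With median centring the brightest probe was −0.30 on array 1 and 0.64 on array 2.

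Herpud1, an ER membrane protein that takes part in the degradation of misfolded protein and carries both element II and a C/EBP-ATF element in the window printed above, had the highest ratio of the 9. Its signals were 7447 and 7879 with HMPA, against 4303 and 4397 with adenine alone. The arrays differed little within a condition and the conditions lay well apart. The log2 ratio was 0.82 ± 0.02, 1.76-fold higher (1.73-fold on array 1 and 1.79-fold on array 2), short of 2-fold. A further 1533 of the 16703 genes had higher ratios. With Feature Extraction's ratios, those of the scanner software, it was 0.93 ± 0.01, and with median centring 0.38 and 1.07 on the arrays.

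Among the ATF4 targets, Asns, asparagine synthetase, had signals of 1022 and 794 with HMPA, against 1157 and 1454 with adenine alone. Both arrays put HMPA lower, by unequal amounts, with log2 ratios of −0.18 and −0.87. The mean was −0.53 ± 0.35, or 1.44-fold, and with Feature Extraction's ratios the arrays gave −0.61 and −0.47. With median centring they gave −0.75 and −0.84. There 16.1% of genes had a smaller distance between arrays, against 93.3% under loess.

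Trib3, a pseudokinase induced by ATF4 and CHOP, had the lowest ratio of the 9. Its brighter probe had signals of 133 and 132 with HMPA, against 216 and 201 with adenine alone. The conditions did not overlap, and the log2 ratio was −0.65 ± 0.04, 1.57-fold lower. The other probe lay near background, with raw signals of 26.4 and 44.8 with HMPA and 50.9 and 37.0 with adenine alone, and was not well above background with HMPA on array 1. Its log2 ratio was −0.01 ± 0.05, so the mean over both probes was −0.33. The brighter probe's ratio moved with the processing. It was −0.86 with an offset of 10 in place of 50 and −0.91 with plain background subtraction. With Feature Extraction's ratios, which also differ in dye normalisation, it was −0.92, and with median centring −0.96. None of these met the rule.

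Sesn2, a stress protein that restrains mTORC1 signalling and is induced by ATF4 and by p53, was level. Its brighter probe had signals of 3219 and 2971 with HMPA, against 3216 and 2803 with adenine alone, and the other had 1203 and 1094 with HMPA and 1175 and 1048 with adenine alone. The conditions overlapped on both probes. The log2 ratios were 0.04 ± 0.04 and 0.05 ± 0.01, and the sign of the first turned with median centring (−0.12), where the median of all genes was −0.22.

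**Figure D2:**
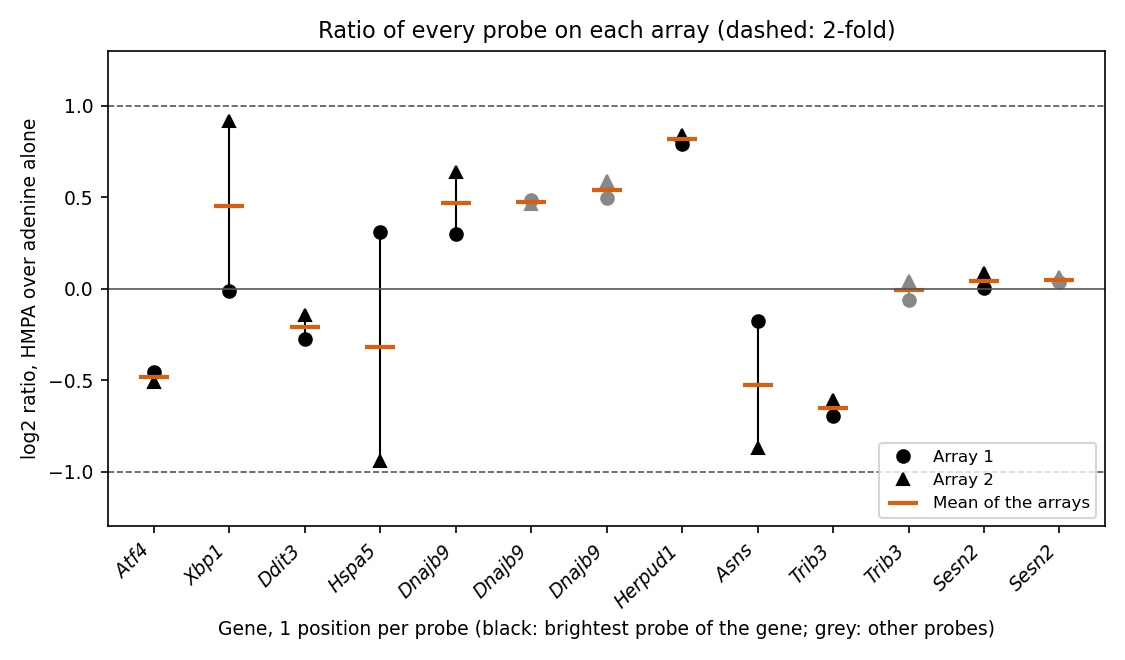
Log2 ratio of HMPA over adenine alone for each of the 13 probes; circles are array 1, triangles array 2, orange bars their mean, black the probe that stands for the gene and grey the others. No mean reaches the dashed 2-fold lines. Under loess the arrays lie far apart for Hspa5 (0.31 and −0.94), Xbp1 (−0.01 and 0.91) and Asns (−0.18 and −0.87). They lie close together for Atf4, Herpud1 and the brighter Trib3 probe.

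The choice of normalisation moved single genes without taking any past the rule. Loess and median centring placed the median of all genes at −0.04 and −0.22, so median-centred ratios are best read against that shift. Relative to the median of all genes, median centring gave 0.94 for Herpud1, 0.39 for Dnajb9, −0.74 for Trib3, −0.60 for Atf4, −0.57 for Asns, −0.29 for Ddit3, −0.13 for Hspa5, 0.41 for Xbp1 and 0.10 for Sesn2. Under all 10 alternatives the signs of Herpud1, Dnajb9, Ddit3, Atf4, Asns and Trib3 were the same as above. The alternatives that change the filter on dim probes could not move these genes. Averaging over probes could move only those with several probes. Hspa5 turned to 0.31 on array 1 alone, Xbp1 to −0.01 on array 1 alone and Sesn2 to −0.12 with median centring.

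**Figure D3:**
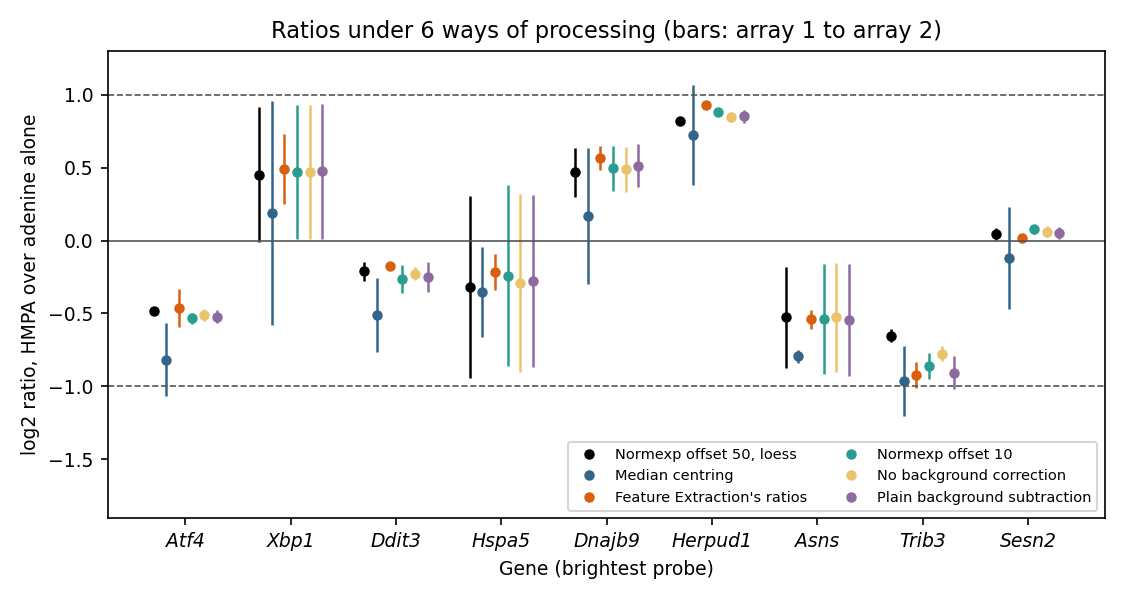
Mean log2 ratio of HMPA over adenine alone (points) and the values of arrays 1 and 2 (ends of the bars) for each gene under 6 ways of processing, in colour. Herpud1 keeps means of 0.72 to 0.93 and Trib3 of −0.96 to −0.65; the long bars of Hspa5 shorten with Feature Extraction's ratios (−0.10 and −0.34), and no mean reaches the dashed 2-fold lines.

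The rest of the pathway was read from 6 gene lists, each described by its counts and median. Beside them stand the shares of all genes, 6.64% higher, 7.71% lower and 53.9% below 0, and the median of all genes, −0.04 (−0.22 with median centring). The lists were chosen with earlier results of these data known. A share that differs from that of all genes may reflect this choice and was not tested. Of 25 measured sensors and regulators, 1 was higher (4.0%) and 1 lower (4.0%), both shares below those of all genes. The list's median was −0.04, with −0.06 on array 1, 0.03 on array 2 and −0.31 with median centring. Both were relatives of Trib3: the pseudokinase gene Trib1 was lower (−1.32 ± 0.37, with 587 and 447 with HMPA against 1137 and 1440 with adenine alone), and Trib2 was higher (1.01 ± 0.15, with 703 and 830 with HMPA against 387 and 370 with adenine alone). Trib1 missed the rule when array 1 was used by itself (−0.95). Trib2 missed it there too (0.86), as well as under median centring (0.69) and when its probes were averaged (0.78). The 3 sensors themselves, named here after their values were seen, had measured ratios near 0. Atf6 was −0.21 ± 0.06, with 1 other probe of opposite sign, and Eif2ak3, encoding PERK, was −0.17 ± 0.13. Ern1, encoding IRE1, was 0.06 ± 0.05 by its only probe. That probe was dim, with signals of 86.2 and 88.5 with HMPA against 85.4 and 82.2 with adenine alone. The offset of the background correction draws ratios of such dim spots toward 0, so the Ern1 ratio does not show that Ern1 was level.

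Of 30 genes of ER folding, 0 met the rule, against 6.64% of all genes higher and 7.71% lower. There were 15 above 0 and 15 below, while 53.9% of all genes lay below 0. The median was −0.02, with 0.13 on array 1, −0.10 on array 2 and −0.24 with median centring. The extremes were Sil1, the nucleotide exchange factor of BiP (0.73 ± 0.32), and Fkbp14, a prolyl isomerase that acts on collagen (−0.73 ± 0.30). On array 2 alone Sil1 reached 1.05 and Fkbp14 −1.03, and Fkbp14 met the rule with median centring (−1.05). The chaperone Hsp90b1 (GRP94), also named after its value was seen, had signals of 17358 and 16993 with HMPA against 19953 and 16476 with adenine alone, a log2 ratio of −0.08 ± 0.12.

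Of 36 genes of ER degradation and translocation, 1 was higher (2.78%, against 6.64% of all genes) and 0 lower (against 7.71%). The median was 0.13 and turned to −0.08 with median centring. The gene was Sec62, of the translocation channel (1.01 ± 0.17; 2102 and 2465 with HMPA against 1171 and 1089 with adenine alone). It missed the rule when array 1 was used by itself (0.84), under median centring (0.78) and when its probes were averaged (0.88). Of 20 tRNA synthetases, many of them ATF4 targets, 0 met the rule, against 6.64% of all genes higher and 7.71% lower. The median was 0.12, which rested on array 2: it was −0.00139 on array 1, 0.24 on array 2 and −0.18 with median centring. The largest ratios were those of Farsb (0.98 ± 0.19) and Dars (0.62 ± 0.08). Farsb met the rule under 5 of 10 alternatives, with 1.45 from Feature Extraction's ratios.

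Genes linked to ATF4 went both ways. Of 34 measured, 4 were higher (11.8%, against 6.64% of all genes) and 9 lower (26.5%, against 7.71%). Over the alternatives the lower count ran from 7 with probes averaged to 13 with plain background subtraction. The median of the list was −0.31, with −0.13 on array 1, −0.47 on array 2 and −0.56 with median centring. Signals are given first for the 3 lowest ratios. Ddit4 (REDD1), an inhibitor of mTORC1, had signals of 1319 and 1421 with HMPA, against 9006 and 7107 with adenine alone, a log2 ratio of −2.55 ± 0.22 or 5.84-fold lower. Nupr1, a stress-induced chromatin protein, had 838 and 687 with HMPA and 2986 and 3355 with adenine alone (−2.06 ± 0.23). Cebpb, a bZIP transcription factor, had 1975 and 2279 with HMPA and 8017 and 6135 with adenine alone (−1.72 ± 0.30). In each of these the conditions lay far apart on both arrays.

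The bZIP factors Atf5 (−1.35 ± 0.35) and Atf3 (−1.32 ± 0.09) were lower, as were Cdkn1a (p21, −1.34 ± 0.16) and the stress cytokine Gdf15 (−1.05 on the mean, with −1.04 and −1.05 on the arrays). Cdkn1a and Gdf15 are also known p53 targets. The 8 amino acid transporter genes of the list went both ways, and 2 met the rule: Slc7a1, for cationic amino acids (−1.53 ± 0.18), and Slc38a2, for neutral ones (−1.11 ± 0.15), were lower. Averaging the probes of each gene gave −0.77 for Slc7a1 and −0.66 for Slc38a2, short of the rule, and Slc38a2 was −0.97 on array 2 by itself. The other 6 transporter genes did not meet the rule and were named after their values were seen. Slc6a9, for glycine (0.98 ± 0.01), Slc1a4 (0.71 ± 0.41) and Slc3a2 (0.64 ± 0.04) lay above 0, and Slc1a5 (−0.94 ± 0.26) and Slc7a5 (−0.87 ± 0.03) below. Slc7a11, the cystine transporter, was not above background with HMPA, and its measured ratio, between signals near the floor, was 1.29-fold lower. The higher genes were enzymes of serine, glycine and cysteine metabolism and a receptor: Cth had 4219 and 3543 with HMPA against 712 and 780 with adenine alone (2.38 ± 0.19), Shmt2 was 1.73 ± 0.10 and Psat1 1.45 ± 0.24. The lipoprotein receptor Vldlr was 1.07 ± 0.13, but missed the rule under median centring (0.89) and on array 2 by itself (0.94). Chac1, a glutathione-degrading enzyme that ATF4 and CHOP induce, was named after its value was seen: it was −0.26 ± 0.19.

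In the list of cell death genes linked to CHOP, 4 of 11 were lower (36.4%, against 7.71% of all genes) and 0 higher (against 6.64%). The lower count was 3 with probes averaged and 5 with median centring. The median was −0.53, and −0.85 with median centring. The BH3-only genes Bbc3 (PUMA) and Pmaip1 (NOXA), both also p53 targets, were −1.74 ± 0.02 and −1.34 ± 0.11. Bbc3 had signals of 562 and 505 with HMPA, against 1857 and 1714 with adenine alone. The ER-associated caspase Casp12 was −1.86 ± 0.47 and the effector Bak1 −1.36 ± 0.10, although another Bak1 probe lay on the other side of 0 and the mean over its probes was −0.51. Ppp1r15a (GADD34), the CHOP target that restores translation, was named after its value was seen: it was −0.25 ± 0.20.

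**Figure D4:**
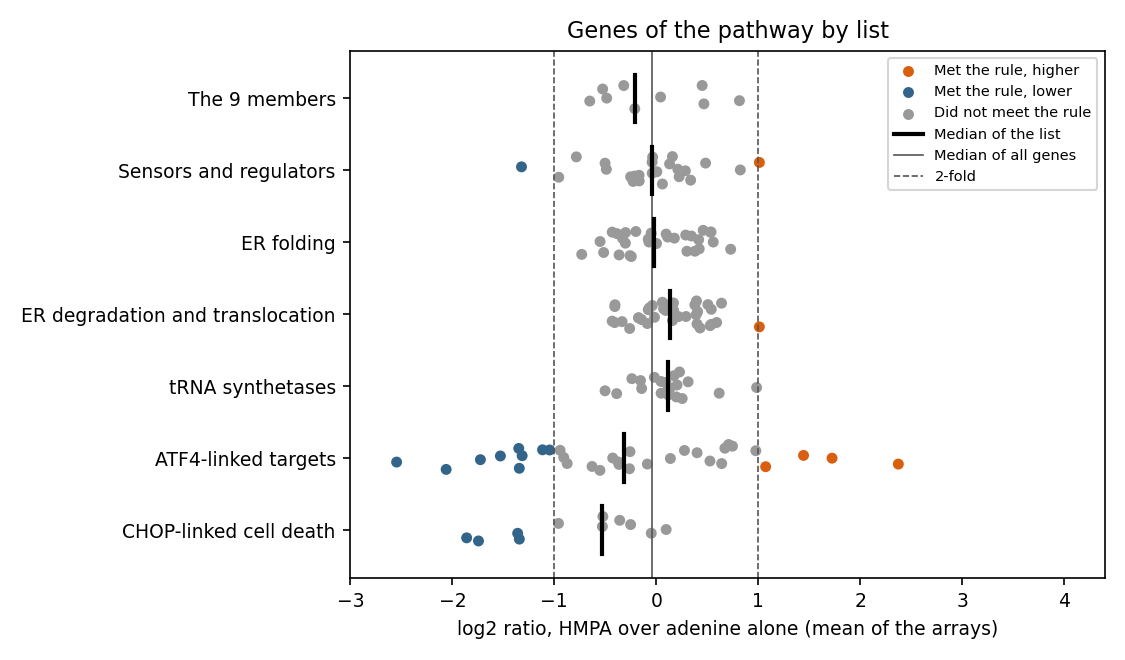
Log2 ratio of HMPA over adenine alone (mean of the arrays) for the 9 members and the measured genes of 6 pathway lists, 1 point per gene; orange and blue points met the rule of size as higher and lower, and black bars are medians. Folding, degradation and synthetase genes lie within or near the dashed 2-fold lines, while ATF4-linked genes spread from −2.55 (Ddit4) to 2.38 (Cth) and 4 of 11 cell death genes are lower.

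Markers of several cell types differed between the conditions. All 10 proximal tubule markers were higher with HMPA (1.24 to 3.90), with summed signals of 297070 to 297198 with HMPA against 31523 to 46701 with adenine alone. All 6 macrophage markers (−2.91 to −1.41; sums of 10977 to 11972 with HMPA against 72978 to 76758 with adenine alone) and all 6 fibroblast markers (lowest −3.23, median −1.83; sums of 11001 to 12109 with HMPA against 61527 to 69297 with adenine alone) were lower. Of 7 markers of injured tubule, 6 were lower and 1, Havcr1, was higher (1.07 ± 0.04). The sums were 21069 to 24168 with HMPA against 158009 to 167905 with adenine alone. Most of the sum with adenine alone was Spp1, with 104147 and 89516, against 8928 and 7635 with HMPA. Of 8 markers of plasma cells, a secretory cell type rich in Xbp1, 1 was lower, Sdc1, and 3 lay above 0, with a list median of −0.24. Their sums were 1674 to 1752 with HMPA and 2934 to 3143 with adenine alone. Most of the sum was Jchain, with 932 and 1040 with HMPA against 1675 and 1771 with adenine alone. Irf4 was not above background with HMPA. All 8 markers of the loop of Henle and distal nephron lay above 0 and 4 were higher (0.11 to 3.60; sums of 67774 to 74045 with HMPA against 37875 to 44307 with adenine alone). All 4 adipocyte markers lay below 0 and 2 were lower (−4.84 to −0.90; sums of 4163 to 5945 with HMPA against 17306 to 18616 with adenine alone). Of 5 podocyte markers 1 was lower (−1.04 to 0.22; sums of 911 to 936 with HMPA against 1359 to 1396 with adenine alone). Of 5 endothelial markers 0 met the rule (−0.55 to 0.51; sums of 5952 to 6081 with HMPA against 7259 to 7825 with adenine alone). The part of these cell types in the values of the stress genes was not tested.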

How the data were processed

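Kidney RNA of 2 conditions was compared on 2 dual-colour arrays. Per the file headers, the authors quantified the scans with Agilent Feature Extraction 12.2.0.7, while the submitters' processing notes name version 9.5. The deposited spot and background columns hold intensity, not normalised. The scanner software's log10 ratio, red to green, was deposited by the authors after its own background and dye steps, per the file headers. The deposited series table repeats these log10 values to within 0.00498 and 0.00499 and keeps the red-to-green direction on both arrays. Log2 values were computed here from the deposited columns.

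Background was corrected with limma 3.58.1 (R 4.3.3) by normexp with an offset of 50, followed by loess on each array, with control and unreliable spots (281 and 297) at weight 0. Signals are from the same fit, after quantile normalisation of the average intensity of spots between the arrays. The offset draws ratios of dim spots toward 0. All ratios are HMPA over adenine alone. Probes stayed in (25144 of 41174) when 1 condition was well above background on array 1 and array 2, and the brightest kept probe stood for a gene. Names came from RefSeq through accessions or symbols. The procedure was tested on simulated data with few changed probes, balanced in direction, and read only for brighter probes. It does not show how loess or the offset acts on dim spots or where many genes differ. The 9 genes, the lists and the alternatives were chosen with earlier results of these data known. Named genes were the 9, all genes of the pathway lists that met the rule, and the 2 largest where none did. Additions to these are marked in the text. Cell type markers are given by counts, ranges and sums, and the few named there were picked outside this rule. Python 3.11.15 with pandas 2.3.3, numpy 2.4.6 and matplotlib 3.10.9 was used for the rest.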

Additional observations from a re-analysis of the deposited data

How the results depend on the processing

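Each value was recomputed under 10 alternatives. All 90 values of the 9 stress genes stayed short of the rule of size. Not all could move: the 9 genes passed either filter on dim probes, so dropping or tightening it restated the same values. Averaging over probes could change only the 3 genes with more than 1 probe. Counts over all genes, 1109 higher and 1288 lower, moved by more than 1.5 times under some. With median centring 1972 genes were lower. With Feature Extraction's ratios 2044 were higher and 2460 lower, and with plain background subtraction 1734 and 2149. The cause was not tested. No paired analysis was possible because each array already holds both conditions and there is 1 group of ratios. Signal over background limits Ddit3 and Trib3 most, and 6 of the 9 genes rest on 1 probe with 1 spot per array. Between the 10 spots of 245 repeated probes the median SD was 0.10 (log2) on array 1 and 0.09 on array 2.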
